A study of Mus musculus with 6 samples.

Results

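*Lrrc15* and 7 other genes of mesenchymal progenitor and stromal cells were followed in cortical bone tubes treated with parathyroid hormone (PTH). The 8 genes were chosen by name, and they were picked because *Lrrc15* had one of the largest rises with PTH on these same arrays, ranking 4 of 11979 genes tested (between 3 and 9 under other settings, with 9 under background subtraction). The change of the 8 genes between PTH and control is therefore a description, and no p is given for them. The array carries 31508 gene symbols on 45281 probes, and the 8 genes account for 14 probes. The bone tubes were the shafts of femur and tibia of 3 month old C57BL6 mice, flushed of marrow and digested with collagenase and trypsin, so that mainly osteocytes in their matrix remained. Control tubes were cultured for 24 hours without PTH, and PTH tubes for 24 hours with 250 nM PTH 1-34, both after a night in medium with fetal calf serum. Each preparation pooled the bones of 4 to 5 mice, and there were 3 arrays in each group. No source used here says whether the preparations were independent experiments, so errors measure the spread between these arrays, which may be technical.

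LRRC15 is a membrane protein built of leucine-rich repeats that is best known on activated fibroblasts. FAP is a membrane serine peptidase of the same cells. Thy1 (CD90) and Ly6a (Sca-1) are small proteins anchored in the cell membrane by lipid and are used as surface markers to sort mesenchymal progenitors, although lymphocytes and endothelial cells can carry them too. *Prrx1* and *Prrx2* encode paired-related homeodomain factors of the limb bud mesenchyme, and *Twist1* and *Twist2* encode basic helix-loop-helix factors that bind the E-box and hold back osteoblast differentiation. PTH acts on osteocytes through a receptor that raises cAMP, which activates factors of the CREB and AP-1 families.

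The sequence just before the start of *Lrrc15* is shown since that gene had by far the largest change of the 8, and that of *Twist1* for comparison as a factor gene of the same group. A RefSeq promoter (GRCm38.p6) was at hand for 5 of the 8 genes, *Lrrc15*, *Prrx1*, *Prrx2*, *Twist1* and *Twist2*, and the 250 bases before the start were searched on both strands. Capitals mark matches to the E-box CANNTG, to the AP-1 site TGACTCA and to the cAMP response element (CRE) half-site TGACG.
Lrrc15, chr16:30283255-30283504, minus strand: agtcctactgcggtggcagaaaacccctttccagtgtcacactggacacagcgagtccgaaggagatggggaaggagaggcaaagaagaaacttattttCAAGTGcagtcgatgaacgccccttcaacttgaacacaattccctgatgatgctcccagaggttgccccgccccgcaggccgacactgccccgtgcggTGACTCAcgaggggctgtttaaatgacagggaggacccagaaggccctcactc
Twist1, chr12:33957421-33957670, plus strand: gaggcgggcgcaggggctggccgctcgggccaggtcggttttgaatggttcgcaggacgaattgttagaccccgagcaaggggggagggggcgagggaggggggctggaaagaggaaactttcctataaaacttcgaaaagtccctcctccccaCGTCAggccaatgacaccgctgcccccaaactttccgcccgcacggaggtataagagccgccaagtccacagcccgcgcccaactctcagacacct
The *Lrrc15* window held 1 E-box, which began 151 bases before the start, and 1 AP-1 site, which began 53 bases before it. It held no CRE half-site. The *Twist1* window held 1 CRE half-site, which began 96 bases before the start, and no E-box or AP-1 site. Of all 32851 promoter windows of this length, 66.2% held an E-box, 4.46% the AP-1 site and 17.8% the CRE half-site. None of the 3 motifs was found in the windows of *Prrx1*, *Prrx2* and *Twist2*, and the full CRE TGACGTCA was in none of the 5 windows and in 1.55% of all. The homeodomain core TAATTA was in the *Prrx1* window alone of the 5, 173 bases before the start, and in 4.84% of all windows. The AP-1 site was added to the search after the letters of the *Lrrc15* window had been seen.

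A probe was taken as above background on an array when its detection p, which sets it against the negative controls of that array, was under 0.05. Between 34.2% and 38.4% of probes were above background, and median signals lay between 111 and 129. The upper quartile of the signal was highest on PTH array 3, at 183 against 141 to 166 on the other 5 arrays, so signals before normalization are not compared between groups without their normalized values. The arrays numbered 3 deviated together from their group means, with r = 0.29 over the genes tested, against 0.06 for both other numbers. Of the 14 osteocyte and osteoblast markers, 11 could be tested, with *Fgf23* and *Runx2* above background on no array. *Ibsp*, *Pth1r*, *Mepe* and *Sp7* were called lower with PTH, with log2 fold changes of -2.01, -1.37, -1.02 and -0.81 (limma adjusted p between 0.000747 and 0.0259). Over all genes tested, 1.04% were called lower. The other 7 markers were not called, among them *Dmp1* (-1.21, limma adjusted p = 0.0557), *Sost* (-1.21, limma adjusted p = 0.15) and *Col1a2* (0.01). *Sost* was above background on 3 control arrays and 1 PTH array. Means were lower with PTH for 10 of the 11.

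*Lrrc15* was 3.42-fold higher with PTH, and the 7 other genes changed far less. A gene was represented by its brightest probe and called at an adjusted p under 0.05 (limma, over all probes tested) with a change of at least 1.5-fold. A probe was tested if 3 or more arrays measured it above background, which was so for all 8 genes. Of the 8, 1 was called, *Lrrc15*, against 1.73% of all genes tested (0.685% called higher and 1.04% called lower). This count was fixed by the choice of *Lrrc15* on the same contrast, and nothing is read from it. The 7 others had log2 fold changes between -0.32 (*Thy1*) and 0.57 (*Twist2*) with a median of -0.07, and the median over all genes was 0.01. The groups did not overlap for 2 of the 8, *Lrrc15* above and *Ly6a* below the controls, against 21.9% of all genes tested (11.1% above and 10.8% below). Means of the others were higher with PTH for *Prrx1*, *Twist1* and *Twist2* and lower for *Fap*, *Thy1*, *Ly6a* and *Prrx2*. In RNA of whole bone tubes, fewer cells of a type and less RNA per cell cannot be told apart.

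**Figure D1:**
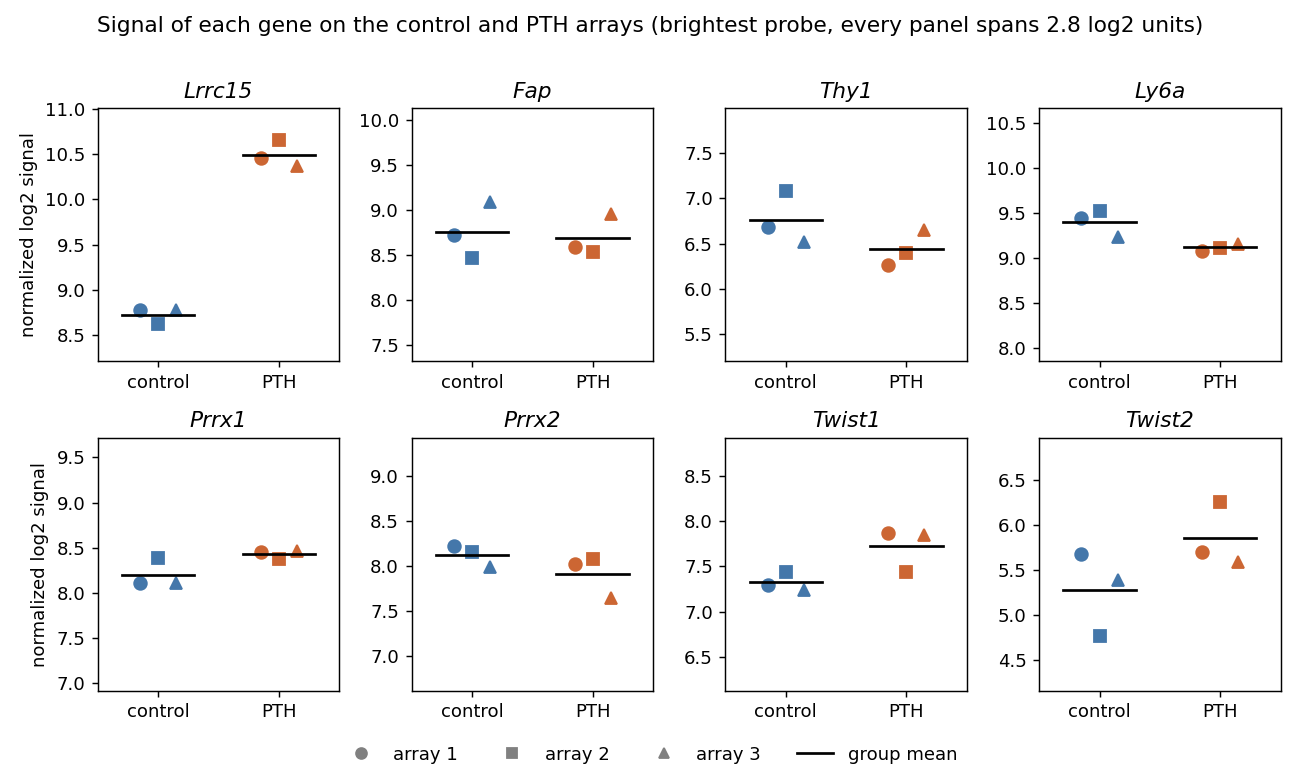
Normalized log2 signal of the brightest probe of each gene on the 3 control (blue) and 3 PTH (orange) arrays, with the array number as the symbol and the group mean as a line. *Lrrc15* lies between 8.62 and 8.78 in control tubes and between 10.37 and 10.66 in PTH tubes, while the groups lie close together or overlap in every other panel.

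*Lrrc15* gave a linear signal, before normalization, of 444, 489 and 524 on control arrays 1, 2 and 3 and of 1227, 1770.3 and 1930.4 on PTH arrays 1, 2 and 3. Normalized, these are 8.78, 8.62 and 8.77 on the log2 scale against 10.45, 10.66 and 10.37. The groups were far apart, and the lowest PTH value exceeded the highest control value by 1.60. Control tubes averaged 8.72 ± 0.09 (SD, n = 3) and PTH tubes 10.50 ± 0.15 (SD, n = 3). Their difference on the log2 scale was 1.77 (SE 0.13). Each SE of a log2 fold change given here is the moderated one of limma, which draws on the spread of all probes tested. The gene had a single probe, above background on all 6 arrays, so the rise could not be compared between probes. It was not a gene switched on from background, since the control arrays already gave a clear signal. Next to it in the order of rises stood *Il1rl1*, the receptor of interleukin-33, at 1.88 and above background on all 6 arrays.

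*Fap* did not follow *Lrrc15*. Its normalized log2 signal was 8.72, 8.46 and 9.08 on control arrays 1, 2 and 3 and 8.59, 8.53 and 8.96 on PTH arrays 1, 2 and 3. In both groups array 3 was the highest, and the groups overlapped across most of their range. Control tubes averaged 8.76 ± 0.31 (SD, n = 3) and PTH tubes 8.69 ± 0.23 (SD, n = 3). The difference of -0.07 (SE 0.19) had no fixed sign, as it was 0.10 without control replicate 3. It was 0.08 under median scaling of the arrays, which shifted the median of all genes to 0.12, and relative to that median it was -0.03. A further *Fap* probe was above background on no array.

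The surface markers *Thy1* and *Ly6a* had lower means with PTH. *Thy1* gave 6.68, 7.08 and 6.51 on control arrays 1, 2 and 3 and 6.26, 6.40 and 6.65 on PTH arrays 1, 2 and 3. These values overlapped, with PTH array 3 above control array 3, and the log2 fold change was -0.32 (SE 0.18), or -0.16 without control replicate 2. Its other probe was above background on no array. *Ly6a* gave 9.45, 9.52 and 9.23 in control tubes against 9.08, 9.11 and 9.16 in PTH tubes. Here the highest PTH value was 0.07 under the lowest control value, and the mean went from 9.40 ± 0.15 (SD, n = 3) to 9.12 ± 0.04 (SD, n = 3). The log2 fold change was -0.28 (SE 0.13), or 1.21-fold lower. A difference of this kind was common, since PTH values all lay below the controls in 10.8% of the genes tested.

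Markers of other cells that carry *Thy1* and *Ly6a* were examined beside them. Of 10 T lymphocyte markers 4 could be tested and none was called (limma), with 2 at an unadjusted p under 0.05. These 2 were lower with PTH, *Cd247* (-0.48, listed as Cd3z) and *Cd28* (-0.51). Means of the other 2, *Lck* (0.29) and *Il7r* (0.01), were higher. Of all genes tested, 14.9% were at an unadjusted p under 0.05 (limma). *Cd3d* and *Cd3g* were above background on no array and *Cd3e* on 1. The summed linear signal of the 4 tested was 226 to 282 on control and 209 to 222 on PTH arrays. This sum, like those below, is of normalized values and includes the offset of 16 added to every probe. All 10 endothelial markers could be tested and none was called (limma), with 2 at an unadjusted p under 0.05, a median log2 fold change of -0.28 and a summed signal of 2706 to 2936 on control and 2671 to 2955 on PTH arrays. Genes induced by interferon, which also raises *Ly6a*, were examined as well. Of 10 such genes 9 could be tested and none was called (limma), with 2 at an unadjusted p under 0.05. Their median was 0.19 and their summed signal was 696 to 761 on control and 844 to 928 on PTH arrays. The part of these cells and of interferon in the values of *Thy1* and *Ly6a* was not tested.

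*Prrx1* was the gene with most probes. Its brightest probe gave 8.11, 8.39 and 8.11 on control arrays 1, 2 and 3 and 8.46, 8.37 and 8.47 on PTH arrays 1, 2 and 3. Control array 2 lay just above PTH array 2, by 0.02, and the other 2 control arrays lay below all PTH arrays. The log2 fold change of this probe was 0.23 (SE 0.13), and those of 3 further probes tested were 0.06 (SE 0.21), -0.11 (SE 0.14) and 0.07 (SE 0.14). The probes of *Prrx1* thus differed in sign, and each lay within 2 of these moderated SE of no change. The fifth probe was above background on 1 array and was not tested. *Prrx2*, the closest relative of *Prrx1*, gave 8.22, 8.16 and 7.99 in control tubes against 8.03, 8.08 and 7.64 in PTH tubes. The groups overlapped, PTH array 3 was the lowest of all, and the log2 fold change was -0.21 (SE 0.16), or -0.07 without PTH replicate 3.

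**Figure D2:**
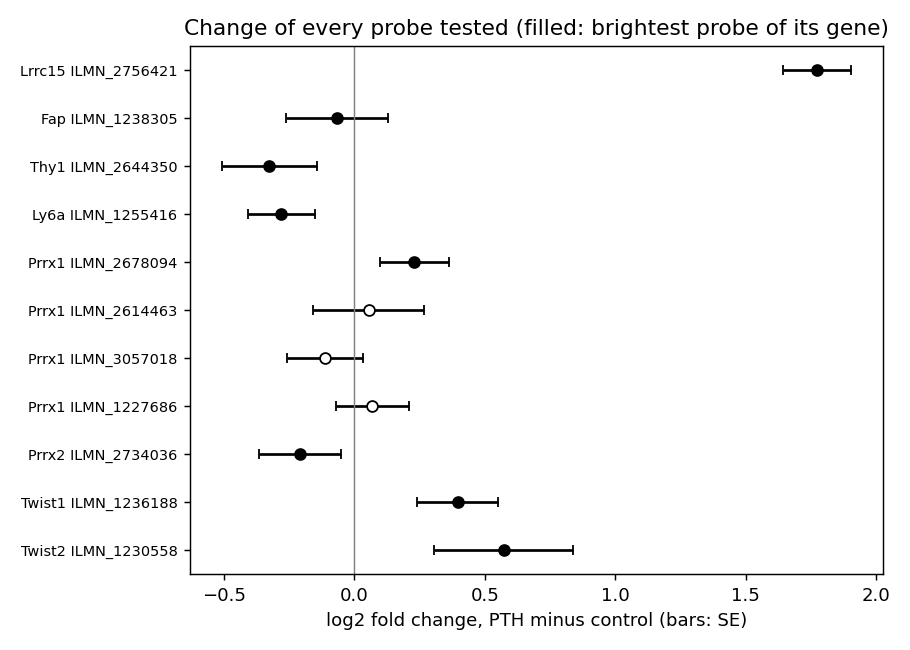
Log2 fold change (PTH minus control, horizontal axis) of the 11 probes of the 8 genes that could be tested, with the SE as bars and the brightest probe of each gene filled. The *Lrrc15* probe stands alone at 1.77, and the other 10 probes lie between -0.32 and 0.57.

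*Twist1* and *Twist2* had the highest mean changes after *Lrrc15*. *Twist1* gave 7.29, 7.44 and 7.24 on control arrays 1, 2 and 3 and 7.87, 7.44 and 7.85 on PTH arrays 1, 2 and 3. PTH arrays 1 and 3 were above all controls, and PTH array 2 was level with control array 2. Control tubes averaged 7.33 ± 0.10 (SD, n = 3), PTH tubes 7.72 ± 0.24 (SD, n = 3), and the difference was 0.40 (SE 0.16). *Twist2* was dim, and its probe passed the detection limit on 2 control arrays and on all 3 PTH arrays. It gave 5.68, 4.77 and 5.39 in control tubes against 5.71, 6.26 and 5.59 in PTH tubes. Its log2 fold change of 0.57 (SE 0.27) rested largely on the arrays numbered 2, the lowest control and the highest PTH array, which differed by 1.49, while those numbered 1 and 3 differed by 0.03 and 0.20. Without PTH array 2 the log2 fold change of *Twist2* was 0.37, and without control array 2 it was 0.32.

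No other member had a profile close to that of *Lrrc15*. Likeness was measured as the root mean square difference of log2 values, each gene centred on its mean over the 6 arrays, with the brightest probe of all genes tested. The 5 nearest genes were *Ifi202b*, an interferon-inducible gene (0.12), *Has1*, a hyaluronan synthase (0.15), *Il1rl1* (0.18), *Rgs2*, a regulator of G protein signalling (0.19), and the transcript BC065085 (0.21). The log2 fold changes of *Has1*, *Il1rl1*, *Rgs2* and BC065085 were 1.67, 1.88, 1.55 and 1.69, and the likeness follows from the contrast itself, so it is a description. *Ifi202b* was above background on the 3 PTH arrays and on no control array, so no fold is given for it. *Rgs2* and BC065085 were above background on 3 PTH arrays and 1 control array. *Has1* and *Il1rl1* were above background on all 6 arrays. The 7 other genes lay at 0.65 (*Twist2*) to 1.08 (*Thy1*) from *Lrrc15* on the same measure.

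**Figure D3:**
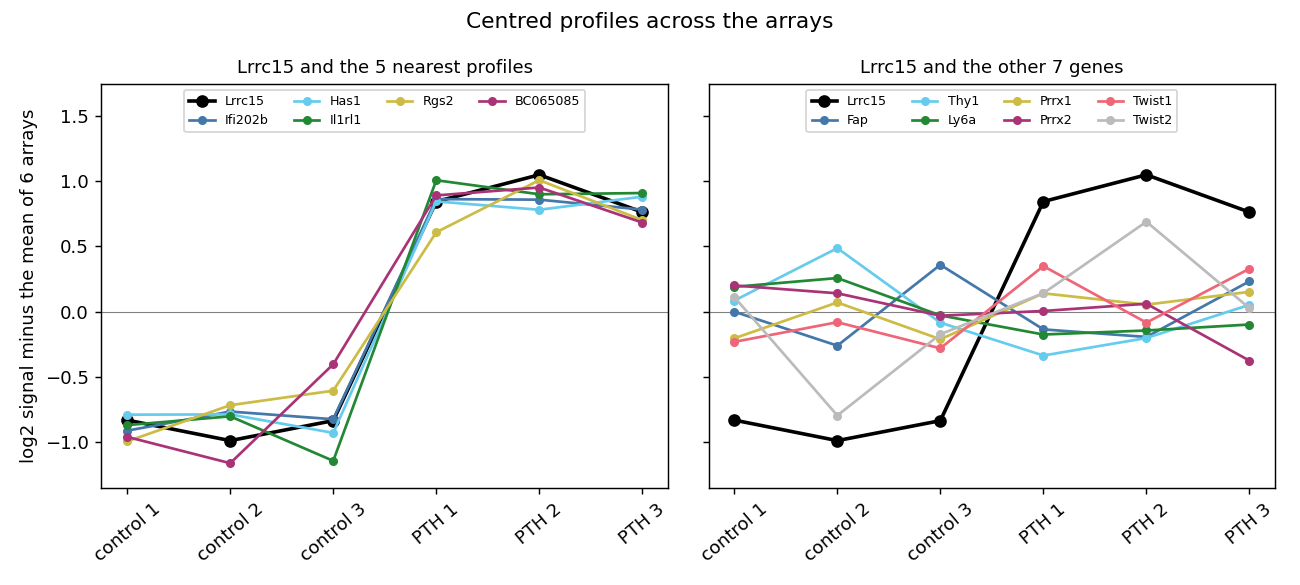
Log2 signal minus the gene's mean over the 6 arrays (vertical axis) on each control and PTH array, for *Lrrc15* (black in both panels) with its 5 nearest genes (left) and with the other 7 genes (right). The left profiles step up together between the control and PTH arrays, while on the right those of the other genes stay within 0.80 of 0 and share no step.

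Lists of companion genes were examined to place the 8 genes among their partners, relatives and cell types. Of 117 companion genes, 83 could be tested, and 3 were called higher and 2 lower with PTH, 6.02% against 1.73% of all genes. Of the 83, 28 were at an unadjusted p under 0.05 (limma), against 14.9% of all genes. The lists were chosen with earlier results of these data known, so nothing is read from either difference. The median log2 fold change of the 83 was -0.01, beside 0.01 for all genes. The 3 higher genes were *Dcn* and *Col3a1*, matrix genes of fibroblasts, and *Inhba*, which encodes the subunit of activin A. The 2 lower genes were *Col15a1*, a basement membrane collagen, and *Ly6c1*, a relative of *Ly6a*.

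*Dcn* (decorin) gave 10.39, 10.41 and 10.46 on control and 11.15, 11.27 and 11.32 on PTH arrays, a difference of 0.83 (SE 0.12) with a limma adjusted p = 0.0181, and its other tested probe also rose, by 1.15. *Col3a1* (type III collagen) gave 9.68, 9.53 and 9.73 on control and 10.43, 10.54 and 10.74 on PTH arrays, a difference of 0.92 (SE 0.14) with a limma adjusted p = 0.0211. Its other probe changed by 0.46 and was not called (limma adjusted p = 0.119). In both genes the groups were well apart and the spread within a group was small. *Inhba* gave 12.77, 12.84 and 12.85 on control and 13.40, 13.41 and 13.48 on PTH arrays, a difference of 0.61 (SE 0.11) with a limma adjusted p = 0.0468. *Col15a1* gave 7.28, 6.85 and 7.35 on control and 5.92, 6.35 and 6.03 on PTH arrays, a difference of -1.06 (SE 0.18) with a limma adjusted p = 0.0339. *Ly6c1*, listed on the array as Ly6c, gave 9.31, 9.51 and 9.43 on control and 8.61, 8.60 and 8.80 on PTH arrays, a difference of -0.75 (SE 0.13) with a limma adjusted p = 0.0328. Neither of these 2 genes had overlapping groups, and the Ly6c probe may also read other *Ly6* transcripts, since probe sequences were not used here. The calls were fragile to the number of arrays. In the 6 fits that each lacked 1 array, *Col15a1* was called in 1, without control replicate 2, and the other 4 genes in none, with limma adjusted p between 0.0451 and 0.131 for *Col15a1*, 0.0516 and 0.0923 for *Dcn*, 0.0511 and 0.0923 for *Col3a1*, 0.1002 and 0.169 for *Inhba*, and 0.0587 and 0.129 for *Ly6c1*. Under median scaling only *Col3a1* of the 5 was called, and with the replicate number as a block none was (limma adjusted p between 0.0661 and 0.118). Background subtraction ended the calls of *Inhba* and *Col15a1*, and *Col15a1* was called in 4 of the 9 other settings with all arrays.

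Among fibroblast markers, 2 of 12 tested were called higher and 1 lower (limma), while 1.73% of all genes were called. The median log2 fold change was 0.34, and 7 of the 12 were at an unadjusted p under 0.05, against 14.9% of all genes. *Lum* (lumican, 0.61, SE 0.12) and *Pcolce2* (a procollagen processing enhancer, 0.59, SE 0.13) had PTH arrays all above control. Neither was called at the main limits (limma adjusted p = 0.0643 and 0.0766). Both were called at a limma adjusted p under 0.10, and where a detection p under 0.01 on all 6 arrays was required. Of 17 activated fibroblast genes tested, 1 was called (limma), *Inhba*, 6 were at an unadjusted p under 0.05, and the median was 0.04. *Pdpn* (podoplanin) changed by 0.70 (SE 0.14) and *Tagln* (transgelin) by -0.49 (SE 0.18), and neither was called (limma adjusted p = 0.056 and 0.252). However, *Pdpn* was called in 4 of the 9 other settings with all arrays, and at a limma adjusted p under 0.10. *Cthrc1*, of the same list, was above background on no array.

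Skeletal stem and stromal cell markers gave no call among 16 tested (limma), and their median was -0.12. *Cxcl12*, a chemokine gene with 3 probes tested, was called lower where the tested probes of a gene were averaged. By its brightest probe it changed by -0.30 (SE 0.18). Of the 16, 5 were at an unadjusted p under 0.05, against 14.9% of all genes tested. The PDGF receptor gene *Pdgfra* (0.59, SE 0.18) and the integrin gene *Itgav* (0.58, SE 0.14) had the largest changes of those above background on all arrays (limma adjusted p = 0.188 and 0.106). Both had PTH arrays all above control. Most means of this list were lower, 10 of the 16. PTH arrays lay all above control for 4 of the 16 and all below for 3, against 11.1% and 10.8% of all genes tested. The proteoglycan gene *Cspg4*, above background on 5 arrays, changed by -1.02 (SE 0.31) and the hyaluronan receptor gene *Cd44* by -0.38 (SE 0.11), both with PTH arrays all below control (limma adjusted p = 0.176 for each). *Lepr*, which encodes the leptin receptor of marrow stromal cells, was above background on no array.

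The transcription factors next to *Prrx* and *Twist* in function showed no call either. Of 20 mesenchymal factors, 11 could be tested, none was called (limma), 2 were at an unadjusted p under 0.05, and the median was 0.04. *Zeb1*, a repressor of epithelial genes listed as Zfhx1a, changed by 0.46 (SE 0.12) and *Foxc2*, a forkhead factor, by 0.29 (SE 0.12), with limma adjusted p of 0.138 and 0.317. *Msx2*, *Hand1*, *Hand2* and *Tbx5* were among the 8 factors above background on no array. Of the 7 E proteins that pair with Twist and Id proteins that sequester E proteins, all could be tested and none was called (limma), also none at an unadjusted p under 0.05. Their median was -0.13, and the largest changes were -0.22 for *Id4* (SE 0.23) and -0.20 for *Id1* (SE 0.13).

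Relatives of the surface proteins were also followed. Of 15 other genes for leucine-rich repeat proteins, 10 could be tested and none was called (limma). Of the 10, 5 were at an unadjusted p under 0.05, against 14.9% of all genes tested, and the median was -0.05. PTH arrays lay all above control for 4, *Flrt2*, *Flrt3*, *Lrig1* and *Lrig3*, and all below for 1, *Gp5*. Of all genes tested, 11.1% lay above and 10.8% below. The largest changes were those of *Flrt3* (0.98, SE 0.26) and *Flrt2* (0.80, SE 0.19), fibronectin and leucine-rich repeat membrane proteins, with limma adjusted p of 0.132 and 0.0995. *Flrt3* was called under median scaling and under normexp with an offset of 50. *Flrt2* was called where a detection p under 0.01 on all 6 arrays was required, and at a limma adjusted p under 0.10. Of 8 FAP-like peptidases, 5 could be tested and all lay between -0.09 and 0.05, with none called (limma) and none at an unadjusted p under 0.05. *Dpp4*, the closest relative of *Fap*, was above background on 2 arrays and was not tested. Of 13 genes of the Ly6 family, 6 could be tested, and apart from *Ly6c1* none was called (limma), with 3 at an unadjusted p under 0.05 and a median of -0.25. *Ly6e* changed by 0.04 (SE 0.15) and *Gpihbp1* by 0.30 (SE 0.19). *Ly6d*, above background on 5 arrays, changed by -0.78 (SE 0.23, limma adjusted p = 0.172), and *Ly6f* was above background on the 3 control arrays and on no PTH array.

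**Figure D4:**
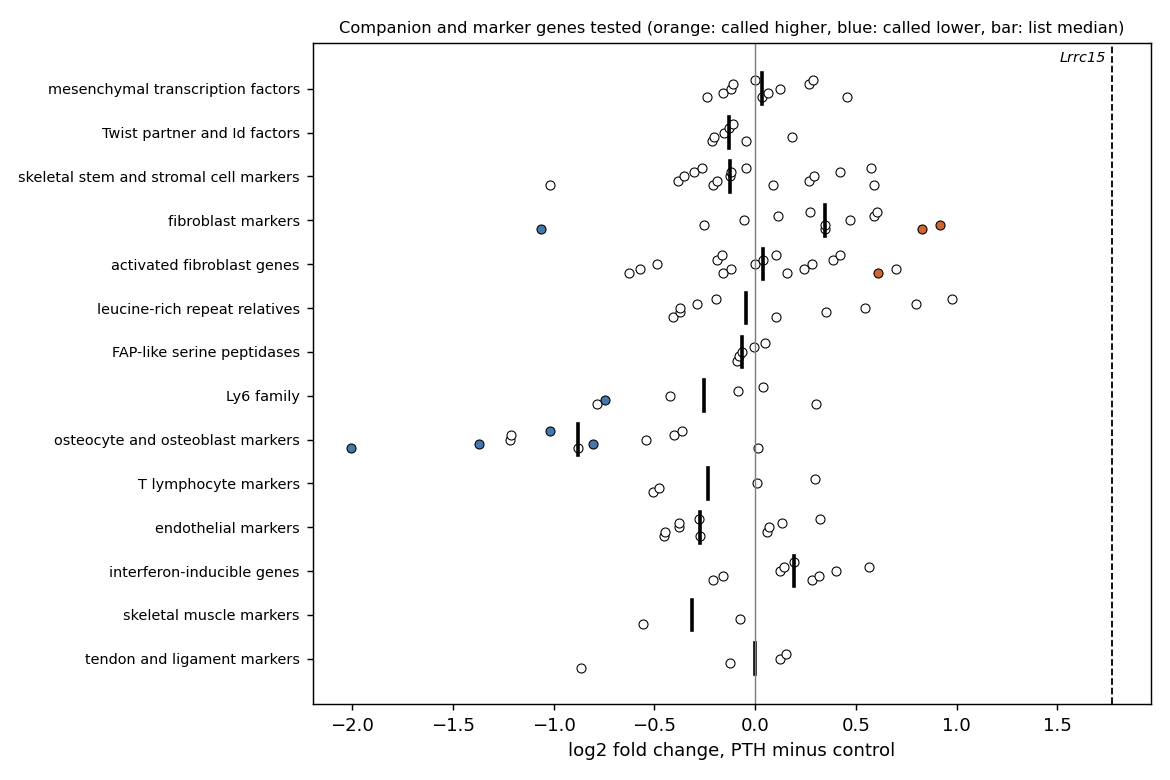
Log2 fold change (PTH minus control, horizontal axis) of every tested gene of the companion and marker lists, with called genes filled in orange (higher) or blue (lower) and the list median as a bar. The dashed line marks *Lrrc15* at 1.77, to the right of every gene shown, of which the highest is *Flrt3* at 0.98.

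Markers of skeletal muscle were mostly at background, while some of tendon and ligament were not. Of 10 skeletal muscle markers, 2 could be tested and 6 were above background on no array, and the summed signal of those 2 was 93.2 to 104 on control and 75.8 to 86.2 on PTH arrays. Of 7 tendon and ligament markers, 4 could be tested, with a summed signal of 2696 to 2868 on control and 2585 to 2784 on PTH arrays. *Egr1* weighs most in this sum, with a mean log2 signal of 10.78 on control arrays, ahead of *Fmod* at 9.06. *Thbs4* and *Kera* were above background on no array, and *Tnmd* on 2. No muscle or tendon and ligament gene was called (limma), and 1 of each list was at an unadjusted p under 0.05. *Scx*, the tendon transcription factor, changed by -0.13 (SE 0.12), and *Fmod* (fibromodulin) by -0.87 (SE 0.21, limma adjusted p = 0.11), with PTH arrays all below control.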

How the data were processed

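RNA of 3 control and 3 PTH preparations of bone tubes was hybridized to Illumina mouse v6 bead arrays, and groups were taken from the sample labels. The authors deposited a linear signal intensity for each probe, neither normalized nor background subtracted, exported from GenomeStudio, and beside it a detection p-value, the p-value of a probe against the negative controls. The authors' own normalized values and scores were not used here. Background correction by normexp from the detection p-values, an offset of 16, quantile normalization and log2 transformation were done with neqc (limma 3.58.1, R 4.3.3). Probes with a detection p under 0.05 on at least 3 of 6 arrays were tested (16214) by lmFit and eBayes, p-values were adjusted over all of them after Benjamini and Hochberg, and each gene took its brightest probe. The number of arrays limits the precision. The 8 genes and all gene lists were chosen with earlier results of these data known. Named genes are the 8, the companion and marker genes called, 2 further genes of largest change per companion list among those above background on all arrays, and the 5 nearest profiles; others were named after their values were seen. List genes were matched through RefSeq symbols and older names. The procedure was tested on simulated data. The alternatives were other background corrections, normalizations, detection filters, thresholds and probe rules, the replicate number as a block, and each array left out. Slides are not named, so a slide block could not be run.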

Additional observations from a re-analysis of the deposited data

How the results depend on the processing

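Of the 8 genes, *Lrrc15* alone was called under each of the 17 alternatives run, which its choice on this contrast favours and which is no sign of stability. Its log2 fold change lay between 1.57 (no background correction) and 1.92 (median scaling) over the 9 other settings with all arrays, and between 1.69 and 1.83 with 1 array left out. *Twist2* gave no value when a detection p under 0.01 on all 6 arrays was required. The 207 genes called over the whole array became 367 at an adjusted p under 0.10, and between 50 and 95 with 1 array left out. Under median scaling they became 104. That scaling shifted the median of all genes to 0.12 and the share of calls that were higher from 39.6% to 60.6%. Its fit also gave all 8 genes and the 5 called companion genes the same SE, 0.285, whatever their own spread. The 5 companion genes called became 3 with background subtraction, 2 under median scaling, 9 with detection on all 6 arrays, 9 at an adjusted p under 0.10, and between 0 and 1 with 1 array left out. The replicate number as a block called 44 genes and 0 companion genes (limma), of which 26 of 83 were at an unadjusted p under 0.05, against 28 without the block. Arrays of the same number correlated in their deviations by 0.06, 0.06 and 0.29, so the numbers were not taken as pairs, and only those numbered 3 correlated best with each other. The causes of these shifts were not tested. Probes near the background, as for *Twist2*, limit what low genes can show.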

Other observations

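Probes listed under other names touch 2 of the 8 genes. The symbol Sca1 is an older name of both *Ly6a* and *Atxn1*, so which gene its probe reads is uncertain, and it was not counted. Its normalized log2 signal was 7.05, 7.43 and 7.61 on control arrays 1, 2 and 3 and 7.14, 7.16 and 7.38 on PTH arrays 1, 2 and 3, and the groups overlapped. A probe listed as A230024N07Rik, an older name of *Prrx1*, was above background on no array.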
